A study of Mus musculus with 2 samples.

Results

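The genes described here are the ligands, receptors and signalling adaptors of the tumour necrosis factor (TNF) superfamily, measured in the main subsets of conventional dendritic cells (DCs) of mouse spleen, those with and those without CD8α at their surface. Members were taken by name, as genes with a probe set of their own whose symbol begins with Tnfsf, Tnfrsf or Traf and a digit, together with Tnf, Lta, Ltb, Ltbr, Cd40, Cd27, Cd70, Fas and Fasl. This gave 45 of the 18194 genes on the array, of which 12 encode ligands, 23 receptors, 6 Traf adaptors and 3 proteins named for binding a Traf, and 1 is a transcript from the strand opposite Tnfsf13. Both groups were unstimulated spleen DCs of C57BL/6 mice that carried B16 melanoma cells, a mouse tumour line, engineered to make Flt3 ligand (Flt3L), the cytokine that expands DCs. The cells were collected 10 to 12 days after the tumour injection, so tumour and Flt3L were shared by both groups. After magnetic enrichment they were sorted as CD11c+ cells lacking CD3 and B220, and then as CD8α+ (called CD8+ here) or CD8α- (CD8-). Each group was 1 Affymetrix array, and the labels do not say how many mice went into it.

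Ligands of this superfamily are mostly membrane proteins that assemble as trimers and can be cut free, and their receptors carry cysteine-rich repeats outside the cell. Some receptors hold a death domain that couples them to caspases, while others bind Traf proteins. Through these, receptors signal to the canonical NF-κB branch, the slower non-canonical branch with the kinase NIK, and MAP kinases. In the spleen, lymphotoxin and its receptor shape the stroma and help maintain CD8- DCs, and DCs use ligands such as 4-1BB ligand and receptors such as CD40 in their exchange with T cells.

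The values are log2 signals, and a difference is the CD8+ value minus the CD8- value. A floor was set at 3.85, the median over all probe sets and both arrays, and a gene counted as measured where at least 1 of its values reached it. Without replicates no test was possible, so a difference cannot be told apart from variation between mice, sorts or hybridisations, and a change in RNA per cell cannot be told apart from a change in the share of cells that hold the transcript. For scale, probe sets of the same gene differed by a pooled SD of 0.30 in this difference over 5183 genes, and 45 bacterial and phage control probe sets differed by 0.07 ± 0.12 (mean ± SD). Cd8a followed the labels, at 11.29 in CD8+ and 5.15 in CD8- DCs, and 5 of 5 conventional DC marker genes (Flt3, Zbtb46, Itgax, H2-Ab1, Ciita) were above the floor on both arrays. The count says little of cell identity. Itgax encodes the CD11c used in the sort, and 62.7% of all 18194 genes reached the floor on at least 1 array. Only 916 genes did so on 1 array alone, so most of these were above it on both.

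Of the 45 members, 29 were measured and 16 lay below the floor on both arrays. At least 2-fold higher in CD8- DCs were 7 members, namely Ltb, Tnfrsf13b, Tnfsf9, Traf1, Tnfsf8, Tnfsf14 and Tnfrsf1b. As measured, 2 members were past 2-fold towards CD8+ DCs, Tnfrsf21 and Tnfrsf22, the latter only through a CD8- value below the floor. That count was 1 with values under the floor raised to it and 0 with all probe sets of a gene averaged. Among all 11404 measured genes, 5.97% passed 2-fold towards CD8- DCs and 3.55% towards CD8+ DCs, against 24.1% and 6.90% of the measured members. These shares describe 1 pair of arrays and were not tested. Tnfsf14 was measured through its CD8- value alone and Tnfrsf22 through its CD8+ value alone, so a difference in those directions was built into their being measured. The median difference of the 29 measured members was -0.15, beside 0.03 for all measured genes.

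**Figure D1:**
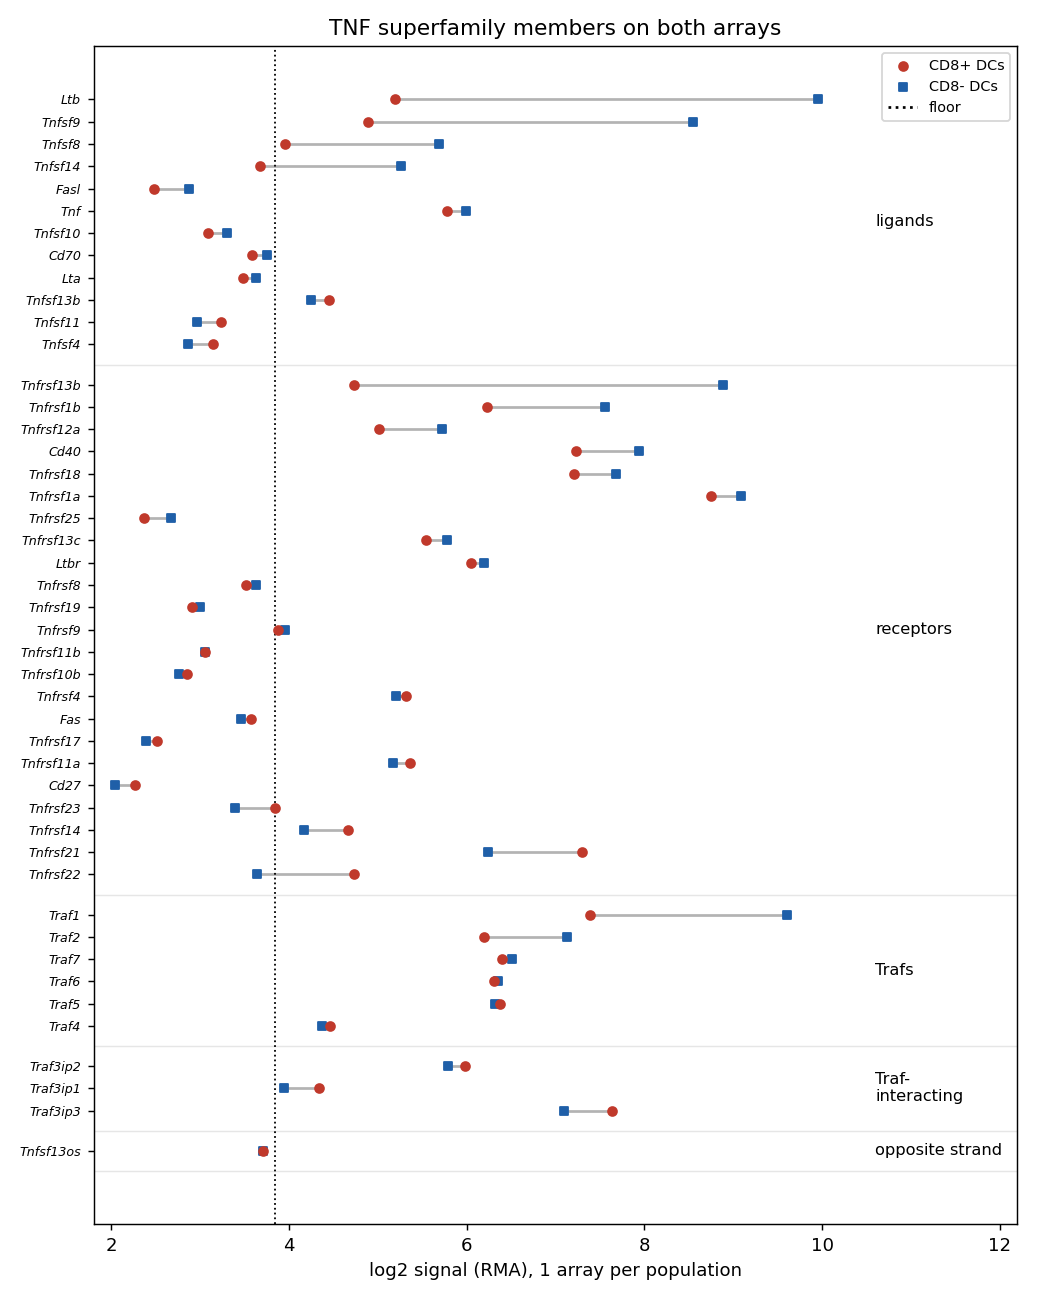
Log2 signal of each of the 45 members in CD8+ DCs (red circles) and CD8- DCs (blue squares), 1 array each, grouped by role and ordered by the difference; the dotted line is the floor of 3.85. Ltb, Tnfrsf13b and Tnfsf9 have the widest gaps, with CD8- values of 9.95, 8.88 and 8.54, and 16 members lie left of the floor on both arrays.

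Ligand genes divided into 4 that were past 2-fold, each higher in CD8- DCs, 2 that were measured and nearly level, and 6 that were below the floor. Ltb encodes lymphotoxin β, the membrane anchor of the lymphotoxin heterotrimer, and had a log2 signal of 5.19 in CD8+ and 9.95 in CD8- DCs. Its difference of -4.76, a 27.1-fold gap, ranked 34 of the 11404 measured genes counted from the CD8- end. Tnfsf9, the gene of 4-1BB ligand, a costimulator of T cells, was at 4.89 in CD8+ and 8.54 in CD8- DCs, and ranked 76. Both genes were above the floor in CD8+ DCs, so these folds rest on measured values at each end, though on 1 probe set per gene.

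The other pair of ligand genes past 2-fold was close to the floor in CD8+ DCs. Tnfsf8, which encodes CD30 ligand, was at 3.95 in CD8+ DCs, just above the floor, and 5.69 in CD8- DCs, or 3.33-fold apart. This gene had 1 probe set. Tnfsf14 encodes LIGHT, a ligand of the herpesvirus entry mediator HVEM and of the lymphotoxin β receptor, and read 3.67 in CD8+ DCs, below the floor, against 5.26 in CD8- DCs. Taken against the floor, its CD8- level was at least 2.67-fold higher. A second Tnfsf14 probe set gave the same order, at 3.10 and 5.04.

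The ligand genes under 2-fold included the founding member of the family. Tnf was at 5.78 in CD8+ and 6.00 in CD8- DCs, a difference of -0.21 that is smaller than the spread between probe sets of a gene. Tnfsf13b, which encodes the B cell survival factor BAFF, was at 4.45 and 4.25, and its other probe sets were below the floor on both arrays. Lta (3.48 and 3.63), Cd70 (3.58 and 3.75), Tnfsf10, the TRAIL gene (3.09 and 3.30), Tnfsf11, the RANK ligand gene (3.23 and 2.96), Tnfsf4, the OX40 ligand gene (3.14 and 2.86), and Fasl (2.48 and 2.87) did not reach the floor in CD8+ or CD8- DCs. Lta encodes the partner of lymphotoxin β in the heterotrimer, so of the genes for that complex Ltb alone was measured. The ligand genes Tnfsf12 and Tnfsf13 had only shared probe sets and were not members, so the ligands are not fully covered. The probe set assigned to Tnfsfm13, Tnfsf13 and Tnfsf12 read 3.77 in CD8+ and 3.64 in CD8- DCs. That assigned to Tnfsfm13 and Tnfsf12 read 4.32 and 3.65.

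Several members are neighbours in the genome, and their differences are given side by side. In the RefSeq gene table Ltb, Tnf and Lta follow each other with 0 protein-coding genes between them, and their differences were -4.76, -0.21 and -0.14, the last from values below the floor. Tnfsf9, Cd70 and Tnfsf14 are likewise neighbours, with Cd70 between the others, and differed by -3.65, -0.17 and -1.60. Cd70 and Lta were below the floor on both arrays, where a difference could not show. Tnfrsf1b lies beside Tnfrsf8, the CD30 gene, and these differed by -1.33 and -0.11, with Tnfrsf8 below the floor on both arrays. Neighbours with the same sign and smaller gaps were Ltbr and Tnfrsf1a, 1 gene apart (-0.15 and -0.33), and Tnfrsf22 and Tnfrsf23 (1.09 and 0.46, the latter below the floor on both arrays). Other neighbours had opposite signs. Tnfrsf4 and Tnfrsf18, both measured, differed by 0.11 and -0.47. Cd27 and Ltbr, 1 gene apart, differed by 0.23 and -0.15, with Cd27 below the floor. Tnfsf4 and Fasl, also 1 gene apart, differed by 0.28 and -0.39, both from values below the floor.

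Promoter sequence is shown for 4 members because the array contrasts them: Ltb against its neighbour Tnf, and the receptor gene Tnfrsf13b and the adaptor gene Traf1, which lead their roles. The sequences are the 250 bases before the start site, written 5′ to 3′ on the strand of the gene, from RefSeq on GRCm38.p6, a build taken from that table since the array files name none. Capitals mark matches on either strand to the NF-κB consensus or to GGAAGT, a core bound by ETS factors such as PU.1, and no 2 matches overlap in these windows.
Ltb (chr17:35194257-35194506, plus strand): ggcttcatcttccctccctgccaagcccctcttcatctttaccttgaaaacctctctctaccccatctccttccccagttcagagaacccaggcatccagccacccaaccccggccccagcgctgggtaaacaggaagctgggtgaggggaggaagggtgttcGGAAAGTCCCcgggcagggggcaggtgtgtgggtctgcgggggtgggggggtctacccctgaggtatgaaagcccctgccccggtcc
Tnf (chr17:35202008-35202257, minus strand): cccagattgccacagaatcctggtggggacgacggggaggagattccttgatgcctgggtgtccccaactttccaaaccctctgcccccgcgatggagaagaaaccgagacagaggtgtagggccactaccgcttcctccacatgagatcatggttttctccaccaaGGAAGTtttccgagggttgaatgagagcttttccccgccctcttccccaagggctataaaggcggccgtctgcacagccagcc
Tnfrsf13b (chr11:61126505-61126754, plus strand): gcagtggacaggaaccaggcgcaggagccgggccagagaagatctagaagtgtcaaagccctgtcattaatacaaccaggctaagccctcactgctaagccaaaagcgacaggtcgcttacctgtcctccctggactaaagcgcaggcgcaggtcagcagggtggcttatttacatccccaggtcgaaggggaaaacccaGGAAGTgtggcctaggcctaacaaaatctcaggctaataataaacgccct
Traf1 (chr2:34961773-34962022, minus strand): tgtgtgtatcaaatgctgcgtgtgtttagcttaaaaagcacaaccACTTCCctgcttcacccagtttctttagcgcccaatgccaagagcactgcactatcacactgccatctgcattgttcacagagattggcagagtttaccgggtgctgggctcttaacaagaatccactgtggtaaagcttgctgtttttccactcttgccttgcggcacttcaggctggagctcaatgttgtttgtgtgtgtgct

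The Ltb window held 1 NF-κB consensus match, GGAAAGTCCC, from 87 to 78 bases before the start, read on the opposite strand. Tnf, Tnfrsf13b and Traf1 each held 1 GGAAGT match, at 83 to 78, 50 to 45 and 205 to 200 bases before the start, that of Traf1 on the opposite strand. Sequences were matched for 36 members with 40 start sites. The NF-κB consensus was in 10.0% of these 40 windows and in 7.25% of all 32851 windows of the same length, and GGAAGT was in 20.0% and 19.7%. Of the 6 members past 2-fold towards CD8- DCs that had a window, 1 held the NF-κB consensus (Ltb) and 2 held GGAAGT (Tnfrsf13b and Traf1). Members under 2-fold or below the floor held them too, such as Traf7 with GGAAGT and Tnfrsf9 with the NF-κB consensus. These matches describe letters in a short window and do not show binding.

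**Figure D2:**
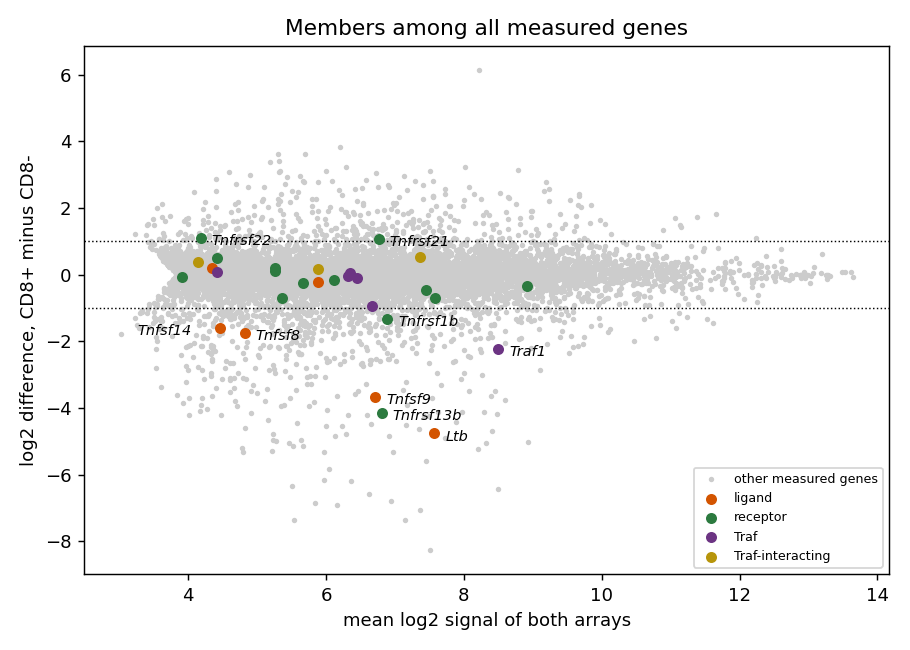
Difference in log2 signal (CD8+ minus CD8-) against the mean log2 signal of both arrays, for all 11404 measured genes (grey) and the 29 measured members (coloured by role); dotted lines are 2-fold. Ltb, Tnfrsf13b and Tnfsf9 lie below -3.6, apart from the other members, while Tnfrsf21 and Tnfrsf22 lie just above the upper line.

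Receptor genes showed 1 very large difference and several small ones. Tnfrsf13b encodes TACI, a receptor for BAFF and APRIL best known on B cells, and was at 4.73 in CD8+ and 8.88 in CD8- DCs. The difference of -4.15, or 17.7-fold, ranked 54 from the CD8- end, and the gene had 1 probe set. Tnfrsf13c, the BAFF receptor gene, did not show this gap, at 5.54 and 5.78. Tnfrsf17, which encodes BCMA, was below the floor at 2.51 and 2.39, where a difference could not show.

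Because Tnfrsf13b and Ltb are also expressed by B cells, B cell markers are given beside them. Of 5 listed, 4 had a probe set of their own, and the sum of their linear signals came to 88.7 in CD8+ DCs and 152 in CD8- DCs. Cd79a (3.55 and 3.35) and Pax5 (3.79 on both arrays) were below the floor. Ms4a1, the CD20 gene, was at 5.74 in CD8+ and 4.99 in CD8- DCs, whereas Cd79b was at 3.28 and 6.59, or at least 6.72-fold apart. Among 5 plasmacytoid DC markers the summed signal was 525 and 528, with Tcf4 higher in CD8- DCs (5.47 and 7.55), Ccr9 higher in CD8+ DCs (8.03 and 5.94), and Siglech near the floor (3.71 and 4.04). Of 5 monocyte and macrophage markers with a probe set, 4 were measured, and the sum came to 280 in CD8+ DCs and 419 in CD8- DCs. Adgre1, the F4/80 gene, was at 4.63 and 8.22. The other 3 measured markers were higher in CD8+ DCs, namely Cd14 (7.50 and 6.10), Vcam1 (5.52 and 4.66) and Fcgr1 (4.36 and 4.26). The higher sum in CD8- DCs thus came from Adgre1 and does not describe the list as a whole. In the T cell list 1 of 4 genes was measured (Cd3e, 4.76 and 4.90), with summed signals of 48.7 and 51.9. In the NK cell list 1 of 4 was measured (Prf1, 4.04 and 4.11), and 0 of 5 were in the neutrophil list. Of 5 melanoma genes 1 was measured (Pmel, 4.40 and 4.30), with summed signals of 50.1 in CD8+ and 46.5 in CD8- DCs. The part of other cells in the values of Ltb and Tnfrsf13b was not tested.

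Tnfrsf1b was the other receptor gene past 2-fold towards CD8- DCs. It encodes TNFR2, the TNF receptor without a death domain, and was at 6.23 in CD8+ and 7.55 in CD8- DCs, or 2.51-fold apart. A second probe set had the same sign but stayed under 2-fold, at 5.43 against 6.16. Tnfrsf1a, which encodes TNFR1 with its death domain, was at 8.75 and 9.08.

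Towards CD8+ DCs, 1 receptor gene was past 2-fold on values above the floor. Tnfrsf21, which encodes the death domain receptor DR6, was at 7.30 in CD8+ and 6.23 in CD8- DCs, or 2.09-fold apart, and the second probe set (6.16 and 5.43) was under 2-fold. Tnfrsf22, which encodes a TRAIL receptor without a signalling domain, read 4.73 in CD8+ DCs against a value below the floor, 3.64, in CD8- DCs, a gap of at least 1.85-fold, which does not show that 2-fold was reached. Its remaining probe sets were below the floor and differed by -0.08 and 0.60. The neighbouring gene Tnfrsf23 encodes a closely similar decoy receptor and was below the floor at 3.84 and 3.39, and a probe set that the annotation assigns to both genes read 4.27 and 3.62. Cross-hybridisation within this pair was not tested.

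The remaining measured receptor genes stayed under 2-fold. Cd40, the receptor for the T cell ligand CD154, was lower in CD8+ DCs on each of its 3 probe sets, with differences from -0.70 to -0.55. Tnfrsf12a, which encodes the TWEAK receptor Fn14, was at 5.01 in CD8+ and 5.72 in CD8- DCs, with a second probe set at 5.12 and 5.41. Tnfrsf18, the GITR gene, was at 7.21 and 7.68, and Ltbr, which encodes the receptor for lymphotoxin β and LIGHT, was at 6.05 and 6.19. Slightly higher in CD8+ DCs were Tnfrsf14, the HVEM gene (4.66 and 4.17), Tnfrsf11a, the RANK gene (5.36 and 5.16, with the opposite order on a dim second probe set), and Tnfrsf4, the OX40 gene (5.32 and 5.21). Tnfrsf9, the 4-1BB gene, was at the floor on both arrays (3.88 and 3.96).

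In addition to Tnfrsf17, Tnfrsf23 and Tnfrsf8, the receptor genes below the floor on both arrays were Fas (3.57 and 3.45), Cd27 (2.27 and 2.04), Tnfrsf25, the DR3 gene (2.37 and 2.67), Tnfrsf19, the TROY gene (2.90 in CD8+ DCs, with a difference of -0.09), Tnfrsf11b, the osteoprotegerin gene (3.05 on both arrays), and Tnfrsf10b, the TRAIL death receptor gene (2.85 and 2.76). The Tnfsf13 opposite-strand transcript Tnfsf13os was also below it, at 3.70 on both arrays. Signals below the floor do not show that a transcript was absent.

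Ligand and receptor genes were also set side by side as 22 textbook pairs. In 8 pairs both genes were measured, and 0 of these had both past 2-fold. The ligand alone was past 2-fold in 4 of them, Ltb with Ltbr, Tnfsf9 with Tnfrsf9, and Tnfsf14 with Tnfrsf14 or Ltbr. The receptor alone was past it in 2, Tnfrsf1b with Tnf and Tnfrsf13b with Tnfsf13b. In the 2 remaining pairs, Tnf with Tnfrsf1a and Tnfsf13b with Tnfrsf13c, neither gene was. For 5 pairs neither gene was measured, among them Fasl with Fas and Cd70 with Cd27. Ltbr, Tnf, Tnfsf14 and Tnfsf13b recur among the 8 pairs with both genes measured, so these pairs are not independent. Tnfrsf9 was near the floor on both arrays (3.88 and 3.96), where a difference could hardly show. Of all measured members, 24.1% were past 2-fold towards CD8- DCs and 6.90% towards CD8+ DCs. With shares of that size, 0 of 8 pairs says little, and the pair counts were not tested.

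Of the 6 Traf genes, each of which was measured, Traf1 stood past 2-fold. Traf3 was not among the members, so the family is not fully covered. Traf1, which encodes a Traf without the RING domain that joins Traf2 at several receptors, was at 7.39 in CD8+ and 9.60 in CD8- DCs, or 4.64-fold apart. The second probe set gave 7.26 and 8.35, so both were past 2-fold but their sizes differed by 1.12 on the log2 scale. Traf2, which recruits the ubiquitin ligases of the Birc family, was at 6.20 and 7.12, a difference of -0.93 just under 2-fold. Traf6 (6.30 and 6.35), which also serves Toll-like receptors, Traf5 (6.37 and 6.31), Traf7 (6.40 and 6.51) and Traf4 (4.46 and 4.37) differed by less than the spread between probe sets. The 4 measured Traf6 probe sets ran from -0.17 to 0.35.

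The genes named for an interaction with a Traf were all slightly higher in CD8+ DCs and under 2-fold. Traf3ip3, which encodes an adaptor of lymphocytes, was at 7.64 in CD8+ and 7.10 in CD8- DCs. Traf3ip1, a gene of transport in cilia, was at 4.34 and 3.94, and Traf3ip2, which encodes the IL-17 receptor adaptor Act1, was at 5.98 and 5.79.

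**Figure D3:**
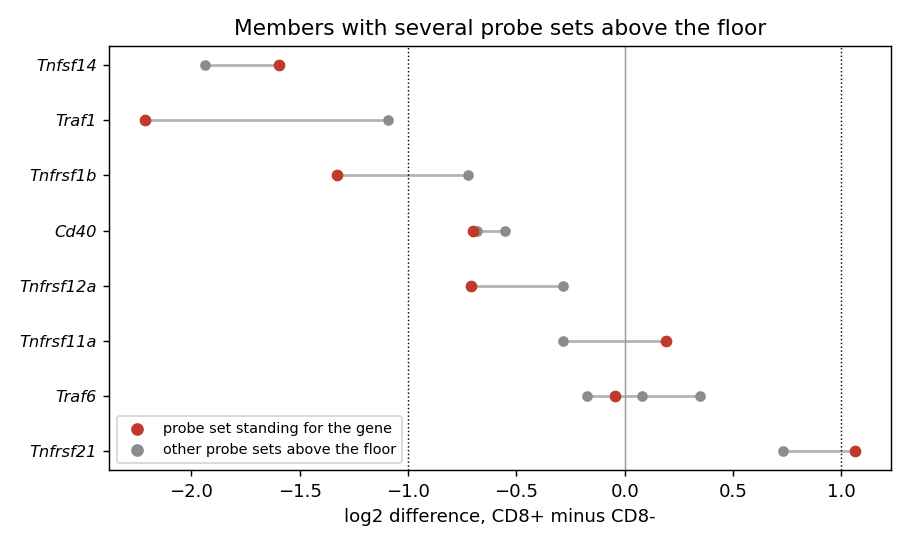
Difference in log2 signal (CD8+ minus CD8-) of every probe set above the floor, for the 8 members with more than 1; red points are the probe sets that stand for the gene and dotted lines are 2-fold. For 6 of the 8 the probe sets have the same sign, with the widest range for Traf1 (1.12), while those of Tnfrsf11a and Traf6 fall on both sides of 0.

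Other genes of the pathway were read from 5 lists of 52 genes, of which 46 had a probe set of their own and 45 were measured. At least 2-fold higher in CD8- DCs were 5 of these, Relb, Tnfaip3, Nfkbie, Map3k5 and Rel, and 1, Map2k6, was so in CD8+ DCs, against the same 5.97% and 3.55% of all measured genes. The median difference over the 45 genes was -0.28. In the non-canonical NF-κB list 1 of 5 measured genes, Relb, was past 2-fold. All 5 were higher in CD8- DCs, beside 44.8% of all measured genes, and their median was -0.72. Relb, the NF-κB subunit this branch frees, was at 6.06 in CD8+ and 8.16 in CD8- DCs. Nfkb2, its p100 partner, was at 6.62 and 7.53, and Map3k14, which encodes NIK, was at 6.22 and 6.95. Birc2 (7.33 and 8.04) and Birc3 (10.00 and 10.51), encode ubiquitin ligases that hold NIK low. These 4 genes were under 2-fold.

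The canonical branch had 2 of 13 measured genes past 2-fold, each higher in CD8- DCs, and a median of -0.25. By sign alone, 8 were higher in CD8- and 5 in CD8+ DCs. Rel, which encodes c-Rel, was at 6.91 in CD8+ and 8.09 in CD8- DCs, and Nfkbie, an inhibitor that holds NF-κB in the cytoplasm, at 8.28 and 9.66. Rela (7.60 and 7.87), Ikbkb, a kinase of the IκB complex (8.70 and 9.26), and the adaptor gene Tank (6.52 and 7.43) were under 2-fold. Of the kinase genes, Map3k7, which encodes TAK1, was at 7.20 and 7.45 and Tbk1 at 8.47 and 8.42, while Ikbke was below the floor. The TAK1 partner genes Tab1 (5.14 and 4.84), Tab2 (9.76 and 9.75) and Tab3 (5.95 and 6.16), Ikbkg, which encodes NEMO (6.85 and 6.69), and the inhibitor gene Nfkbib (7.29 and 7.22) were nearly level. Another inhibitor gene, Nfkbia, was at 11.68 in CD8+ and 12.27 in CD8- DCs, or 1.51-fold apart. Tnfaip3 encodes A20, a ubiquitin-editing brake on NF-κB, and was 3.76-fold higher in CD8- DCs (7.87 and 9.78). Its list, which also holds the enzymes that shed ligands, had a median of -0.11, with the TNF-cleaving protease gene Adam17 at 8.05 and 8.32. Of the 11 genes in it, 7 were higher in CD8- and 4 in CD8+ DCs.

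The death list divided 3 to 3 by sign, and the MAP kinase list had 6 genes higher in CD8- and 4 in CD8+ DCs. None of 6 measured death adaptor and caspase genes reached 2-fold, with Fadd at 6.40 and 6.47, Tradd at 6.91 and 6.66, the kinase gene Ripk3 at 6.79 and 6.76, Casp8 at 7.78 and 8.63, and its inhibitor gene Cflar at 6.73 and 7.33. Bid, the remaining gene of this list, was higher in CD8+ DCs, at 8.54 and 7.95. Of 10 measured MAP kinase genes, Map3k5, which encodes the stress kinase ASK1, was 2.37-fold higher in CD8- DCs (6.43 and 7.67). Map2k6, a kinase that activates p38, was 2.91-fold higher in CD8+ DCs (8.19 and 6.65), while the p38α gene Mapk14 was at 9.71 and 10.16. The JNK genes Mapk8 (6.59 and 6.87) and Mapk9 (8.37 and 7.95) and the upstream kinase genes Map2k4 (7.78 and 7.24) and Map3k1 (6.65 and 7.17) were under 2-fold.

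**Figure D4:**
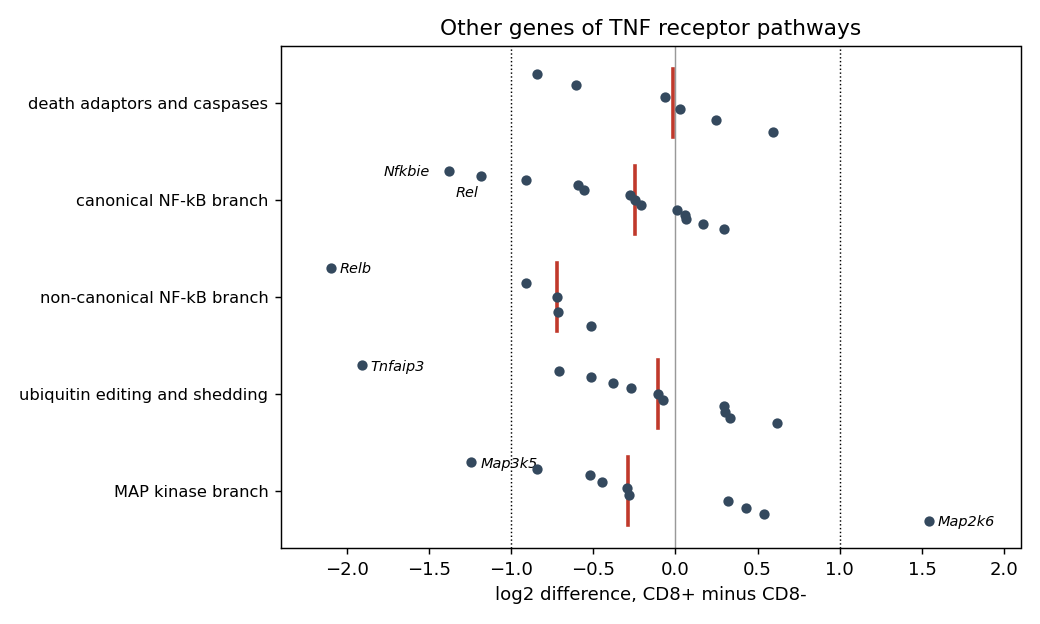
Difference in log2 signal (CD8+ minus CD8-) of the 45 measured genes in 5 pathway lists; each point is a gene, red bars are list medians and dotted lines are 2-fold. The 5 non-canonical NF-κB genes all lie left of 0 with a median of -0.72, and Map2k6 is the 1 gene right of the upper 2-fold line.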

How the data were processed

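Total RNA of each population was labelled as biotinylated cRNA and hybridised to 1 Affymetrix array. The deposited table holds log2 signals of 45101 probe sets, which the authors made with RMA, per the submitters' processing notes. This method quantile-normalises arrays after background correction, so a shift shared by most genes would not show, and background compresses differences of dim genes. Neither its version nor the arrays it was run on together is stated in the sources used here.

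The platform annotation gave 34958 of them a single symbol, and 34754 of them matched the RefSeq table (GRCm38.p6) by gene identifier, as did all 74 probe sets of the members. The probe set with the highest mean stood for a gene. Differences were described by size at 2-fold. Where the dimmer value was below the floor, the fold was taken against the floor and written as "at least". Members past 2-fold, measured members by role and members below the floor are all named, as are pathway genes past 2-fold and most adaptors and kinases of each branch. The members and lists were chosen with earlier results of these data known. Precision is limited by the number of arrays. The alternatives were centring each array, subtracting a lowess trend (span 0.3), no filter, a floor at the 75th percentile (6.01), averaging probe sets, leaving out probe sets ending in _x_at or _s_at, setting values below the floor to it, and thresholds of 1.5-fold and 4-fold. Calculations used Python 3.11.15, numpy 2.4.6, pandas 2.3.3 and statsmodels 0.14.6, and were tested on simulated data.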

Additional observations from a re-analysis of the deposited data

How the results depend on the processing

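The 7 members past 2-fold towards CD8- DCs stayed past it under each alternative to the normalisation and probe set rule in which they had a value. Part of this was fixed in advance. Ltb, Tnfrsf13b, Tnfsf9 and Tnfsf8 had 1 probe set each, so averaging could not move them. The probe sets that stand for the 7 members do not end in _x_at or _s_at, so leaving those out could not either. With the floor at the 75th percentile 5 were counted, since fewer genes were measured. The count was 10 at 1.5-fold and 4 at 4-fold. The 2 members higher in CD8+ DCs were less stable. The count was 1 with the lowess trend subtracted, with the floor at the 75th percentile, without probe sets ending in _x_at or _s_at, and with sub-floor values raised to the floor. It was 0 with all probe sets averaged and 0 at 4-fold. Over these alternatives the difference of Tnfrsf21 went as low as 0.73 and that of Tnfrsf22 as low as 0.54. The median over measured members was -0.47 with the floor at the 75th percentile and between -0.23 and -0.09 otherwise. Averaging all probe sets moved 3 of 29 member differences by more than 0.30, the SD between probe sets, and leaving out those ending in _x_at or _s_at moved 1. Using no filter or the floor at the 75th percentile leaves the differences as they are by construction, and centring shifts them all alike. Setting values below the floor to it changed the difference of Tnfsf14 to -1.42 and that of Tnfrsf22 to 0.88. No paired analysis was possible because each population had 1 array.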
